A study of Mus musculus with 8 samples.

Results

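The sarcomeric myosin heavy chain genes Myh1, Myh2, Myh3, Myh4, Myh6, Myh7, Myh7b and Myh8 were followed across 4 groups of mouse skeletal myogenic cells. They were picked by symbol, as 8 of the 24980 genes in the deposited count table, and all 8 passed the filter on low counts that left 17582 genes for testing. TF cells were progenitors sorted from teratomas that E14-EGFP mouse embryonic stem cells had formed within 4 weeks in the tibialis anterior muscles of immunodeficient, dystrophin-lacking NSG-mdx4Cv mice, whose hindlimbs were irradiated and whose muscles were injured with cardiotoxin. The sort was for EGFP, α7-integrin and VCAM-1 and against the endothelial marker CD31 and the blood cell marker CD45. TE cells were the same kind of progenitor grown on gelatin to passage 8. SF cells were satellite cells, the resident stem cells of muscle, fresh from adult animals, and SE cells were satellite cells grown to the same passage; the strain and age of the animals that gave them are not given in the sources used here. Each group had 2 biological replicates, and all teratoma cells came from 1 stem cell line.

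Myosin heavy chains are the motor proteins of the thick filament, and each muscle fibre is classed by the isoform it contains. Myh3 (embryonic) and Myh8 (perinatal) are used in developing and regenerating fibres. Myh1 (type IIx), Myh2 (type IIa) and Myh4 (type IIb) are the fast isoforms of adult fibres. Myh7 serves slow fibres and the heart ventricle, Myh6 is the alpha isoform of heart muscle, and Myh7b is a slow-type isoform whose gene hosts the microRNA Mir499. Activated satellite cells divide as myoblasts, and sarcomeric myosins are switched on when such cells leave the cycle and differentiate.

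The genes lie at 3 places in the genome (GRCm38, GENCODE M21). Myh3 (chr11:67078300-67102291), Myh2 (chr11:67171027-67197517), Myh1 (chr11:67200052-67224575), Myh4 (chr11:67238029-67260446) and Myh8 (chr11:67277124-67308634) stand in this order on the plus strand of chromosome 11. Myh6 (chr14:54941921-54966927) and Myh7 (chr14:54970684-54994626) are neighbours on the minus strand of chromosome 14, and Myh7b lies at chr2:155611212-155634307. The 5 members on chromosome 11 did not all share a pattern over the groups, although Myh3 and Myh8 were much alike. The 250 bases before the RefSeq starts of all 5 (GRCm38.p6, plus strand) are therefore shown. The windows are chr11:67078050-67078299 for Myh3, chr11:67276874-67277123 for Myh8, chr11:67199852-67200101 for Myh1, chr11:67170777-67171026 for Myh2 and chr11:67237562-67237811 for Myh4. Capitals mark matches to the MEF2 motif and a run of 14 bases that Myh1, Myh2, Myh4 and Myh8 share.
Myh3: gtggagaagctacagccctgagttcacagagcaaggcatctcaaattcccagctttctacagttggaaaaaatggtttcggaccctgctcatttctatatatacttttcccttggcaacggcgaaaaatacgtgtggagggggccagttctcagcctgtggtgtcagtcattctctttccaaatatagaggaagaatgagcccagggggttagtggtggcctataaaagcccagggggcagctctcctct
Myh8: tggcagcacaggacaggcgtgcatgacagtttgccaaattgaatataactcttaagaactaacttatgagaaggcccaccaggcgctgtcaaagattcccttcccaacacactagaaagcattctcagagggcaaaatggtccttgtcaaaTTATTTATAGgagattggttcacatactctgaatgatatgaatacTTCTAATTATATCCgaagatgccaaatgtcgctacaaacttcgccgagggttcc
Myh1: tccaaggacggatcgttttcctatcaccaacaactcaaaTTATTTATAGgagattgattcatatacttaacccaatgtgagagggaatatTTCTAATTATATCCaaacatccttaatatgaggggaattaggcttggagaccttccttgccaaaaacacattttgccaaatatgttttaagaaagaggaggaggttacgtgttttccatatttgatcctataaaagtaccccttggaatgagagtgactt
Myh2: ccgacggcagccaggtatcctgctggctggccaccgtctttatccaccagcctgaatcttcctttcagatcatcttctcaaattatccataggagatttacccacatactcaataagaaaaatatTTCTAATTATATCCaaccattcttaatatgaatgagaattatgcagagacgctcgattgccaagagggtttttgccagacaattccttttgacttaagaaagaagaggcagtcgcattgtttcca
Myh4: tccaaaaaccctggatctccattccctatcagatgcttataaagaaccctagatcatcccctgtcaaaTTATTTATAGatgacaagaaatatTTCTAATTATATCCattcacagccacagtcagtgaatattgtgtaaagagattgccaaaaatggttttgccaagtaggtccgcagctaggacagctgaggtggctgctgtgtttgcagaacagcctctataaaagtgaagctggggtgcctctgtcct

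The MEF2 motif, searched on both strands, was matched as TTATTTATAG in the windows of Myh8, Myh1 and Myh4, and in 2.92% of the 32851 promoter windows of this length. Counted from the start, the match begins at -99 in Myh8, at -211 in Myh1 and at -182 in Myh4. The run TTCTAATTATATCC was picked after the sequences were seen. It occurred in 4 windows of all 32851, those of Myh1, Myh2, Myh4 and Myh8, and not in that of Myh3. A TATA box (TATAAA, either strand, which can overlap the MEF2 match) was found in 4 of the 8 members, Myh3, Myh8, Myh1 and Myh4, and in 12.4% of all windows. An E-box (CANNTG, either strand) was found in 6 of the 8 members and in 66.2% of all windows, and the windows of Myh1 and Myh2 held none. The CArG motif was found in Myh4 alone among the members and in 1.47% of all windows. The windows of Myh3, Myh8 and Myh2 end at the GENCODE start of the gene, whereas the RefSeq start of Myh1 differs from it by 50 bp and that of Myh4 by 217 bp.

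The libraries held between 11930961 and 21146632 estimated counts. Levels are given as normalized counts (counts divided by median-ratio size factors) per kb of the longest coding transcript, and a count of 3 is taken as the floor of detection. Of the 8 satellite cell markers, 5 fell and 2 rose in TE versus TF, and 6 fell and 1 rose in SE versus SF. Among all tested genes, 16.2% fell and 9.86% rose in TE versus TF, and 19.8% fell and 20.9% rose in SE versus SF. Those that rose were Itga7 and Cdh15 in TE versus TF and Cdh15 in SE versus SF. Pax7 was among those that fell in both, from a mean of 3990 normalized counts in TF to 1372 in TE. In SF its mean was 4313, against 1458 in SE, and it was at 1174 or more in every library. Calcr was 534 and 801 in TF, 1431 and 1428 in SF and 0 in all TE and SE libraries, and Chodl was at most 2.31 in TE and SE. The fresh cells of both origins also held markers of endothelial and blood cells, against which the TF cells were sorted. The 7 endothelial markers summed to 4229 and 1175 normalized counts in TF and 5178 and 6392 in SF, and to at most 36.9 in the expanded groups, and the 7 haematopoietic markers to 4939 and 387 in TF, 963 and 1584 in SF and at most 179 in the expanded groups. TF replicate 1, the TF library with more myosin, held Pecam1 (CD31) at 849 and Ptprc (CD45) at 772, against 84.9 and 98.4 in replicate 2, and the part of these cells in the myosin levels was not tested. Replicates were close in TE and farther apart in the other groups. In SE replicate 2 each myosin was between 1.87 and 5.16 times its level in replicate 1, whereas the median ratio over tested genes was 1. In TF replicate 2 the members were at 0.255 to 0.853 of replicate 1. In bulk RNA, fewer cells of a type and less RNA per cell cannot be told apart.

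Summed over the 8 genes, sarcomeric myosin was lowest in SF and highest in the expanded cells. The sum was 488 and 319 normalized counts per kb in the SF replicates, 2066 and 919 in TF, 13802 and 14960 in TE, and 19081 and 41135 in SE. No SF or TF library overlapped an expanded one. As a share of all counts this was 0.0166% and 0.0100% in SF against 0.765% and 1.71% in SE.

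**Figure D1:**
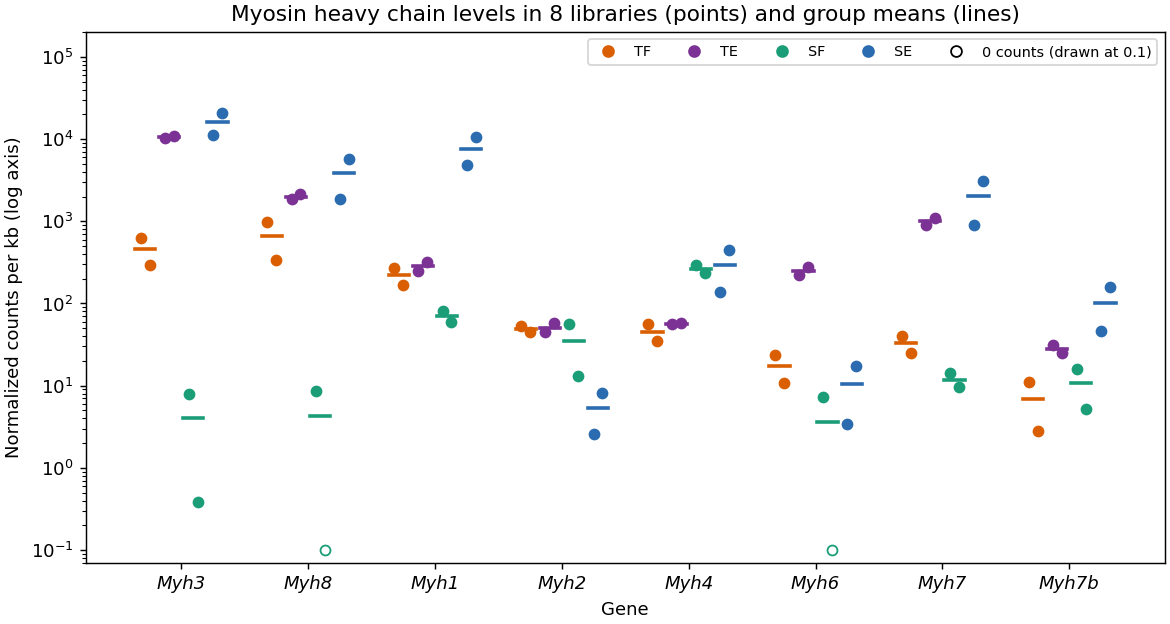
Level of each gene in normalized counts per kb (log axis), with 1 point per library and a line at the mean of the 2 replicates; open points are libraries with 0 counts, drawn at 0.1. Myh3 runs from 0.380 in SF replicate 2 to 21096 in SE replicate 2, while Myh2 is the gene that is lowest in SE.

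Myh3, the embryonic isoform, was the most abundant of the 8 genes in TE and SE. It stood at 632 and 292 normalized counts per kb in TF, 10428 and 10995 in TE, 7.81 and 0.380 in SF, and 11284 and 21096 in SE. The SF values rest on 36.99 and 2.01 counts, the second of which is under the floor. The replicates of TE and SE did not overlap, but their difference did not pass the test given with the other comparisons.

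Myh8, the perinatal isoform, was detected at 979 and 342 normalized counts per kb in TF, 1858 and 2137 in TE, and 1880 and 5762 in SE. In SF it was 8.54 in replicate 1 and 0 in replicate 2. In both TF libraries it exceeded Myh3, with a Myh8 to Myh3 ratio of 1.55 and 1.17, against 0.178 and 0.194 in TE and 0.167 and 0.273 in SE. TE and SE overlapped.

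Myh1, the fast IIx isoform, separated SE from every other group. It reached 4838 and 10523 normalized counts per kb in SE, while it was 272 and 167 in TF, 249 and 320 in TE and 81.3 and 58.8 in SF. TF and TE overlapped. Relative to Myh3 it was 0.429 and 0.499 in SE and 0.0239 and 0.0291 in TE.

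Myh2, the fast IIa isoform, was the one member with its lowest level in SE. It was 2.55 and 8.25 normalized counts per kb there, 52.6 and 44.8 in TF, 44.6 and 57.2 in TE, and 56.8 and 13.2 in SF. TF, TE and SF overlapped, and only SE lay apart.

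Myh4, the fast IIb isoform, was higher in the satellite cells than in the teratoma cells. It was 56.5 and 34.6 normalized counts per kb in TF, 56.2 and 57.3 in TE, 296 and 232 in SF, and 137 and 449 in SE. TF and TE lay close together, and SF fell within the range of SE. It was the most abundant member in SF, where the next, Myh1, reached 81.3.

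Myh7, the slow isoform, was 40.7 and 25.3 normalized counts per kb in TF, 914 and 1096 in TE, 14.2 and 9.52 in SF, and 890 and 3121 in SE. The 2 fresh groups were far below the expanded ones, and TE fell within the range of SE. Myh6, its neighbour and the alpha cardiac isoform, was 23.8 and 10.8 in TF, 222 and 274 in TE, 7.22 and 0 in SF, and 3.39 and 17.5 in SE. Both TE libraries lay above all the others. Myh7b was 10.95 and 2.80 in TF, 31.6 and 24.9 in TE, 16.1 and 5.18 in SF, and 45.8 and 160 in SE.

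**Figure D2:**
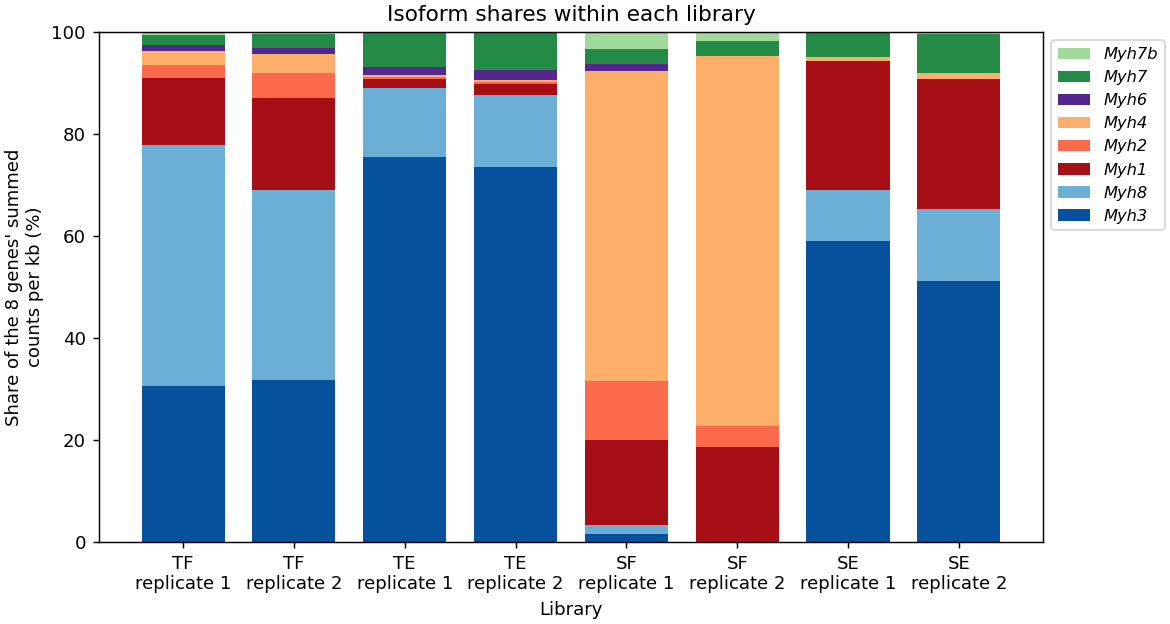
Share of each gene in the summed normalized counts per kb of the 8 genes (%), with 1 stacked bar per library. Myh4 fills most of both SF bars, and Myh3 and Myh8 together fill most of the TF, TE and SE bars. Myh1 fills 25.5% of the SE bars on average.

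The share of each isoform in the sum of all 8 set the groups apart. The developmental isoforms Myh3 and Myh8 together made up 73.4% ± 6.34 (SD, n = 2) of the sum in TF, 88.4% ± 0.872 in TE, 1.74% ± 2.28 in SF and 67.1% ± 2.62 in SE. The adult fast isoforms Myh1, Myh2 and Myh4 made up 22.6% ± 5.93 in TF, 2.72% ± 0.259 in TE, 92.1% ± 4.46 in SF and 26.4% ± 0.428 in SE. The slow and cardiac isoforms Myh6, Myh7 and Myh7b made up 3.94% ± 0.415, 8.89% ± 0.613, 6.15% ± 2.18 and 6.47% ± 2.19 in the same order. A test of 2 against 2 libraries by exact permutation cannot go below a two-sided p of 0.333, so these shares are given without one.

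Within the classes, Myh3 took 31.2% ± 0.846 in TF, 74.5% ± 1.45 in TE and 55.2% ± 5.55 in SE, and Myh8 took 42.3% ± 7.19, 13.9% ± 0.583 and 11.9% ± 2.94. Myh1 took 15.6% ± 3.55 in TF, 1.97% ± 0.233 in TE, 17.6% ± 1.26 in SF and 25.5% ± 0.160 in SE. Myh4 took 66.7% ± 8.50 in SF and 0.905% ± 0.263 in SE, although its level in those groups overlapped. Myh2 took 7.87% ± 5.30 in SF and 0.0167% ± 0.00472 in SE. The share of Myh7 was between 2.36% and 6.97% in all groups, with TE at 6.97% ± 0.498 and SE at 6.13% ± 2.07, and Myh6 was 1.72% ± 0.160 in TE and 0.0301% ± 0.0175 in SE.

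Differences were then tested with edgeR (quasi-likelihood, all genes and groups fitted together). A gene was called at a Benjamini-Hochberg adjusted p below 0.05 with the higher group more than 25% above the lower, and every "rose by", "fell by", "higher by" or "lower by" gives a log2 fold change from this fit. For called members the values on leaving out the libraries that moved them most are given, and for others any library or setting under which they were called. With no filter, adjusted p was far smaller at like fold changes. For Myh3 in TE versus TF (4.59) it was 5.18e-42, against 0.00118 in the main edgeR fit. Calls with no filter are therefore not read as a measure of the spread between replicates. The first comparison asked how culture changed teratoma-derived progenitors. In TE versus TF, 3 of the 8 members rose and no fitted value was negative, while 9.86% of all tested genes rose, 16.2% fell and 26.1% were called either way. The median log2 fold change was 1.87 over the members and -0.176 over all genes.

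Myh7 had a log2 fold change of 4.99 (SE 0.569, adjusted p = 0.000226; 4.72 to 5.39 on leaving out libraries). Myh3 rose by 4.59 (SE 0.697, adjusted p = 0.00118), with 4.17 without TF replicate 2 and 5.27 without TF replicate 1. Myh6 rose by 3.90 (SE 0.995, adjusted p = 0.0177), with 4.59 without TF replicate 1, and its call was lost without TF replicate 2 (3.47, adjusted p = 0.0564) and with DESeq2 (3.84, adjusted p = 0.0861). Both TE libraries were above both TF libraries for each of these 3 genes. Myh7b (2.10, 95% interval 0.35 to 3.85, adjusted p = 0.0762) and Myh8 (1.65, -0.12 to 3.43, adjusted p = 0.152) did not pass. Both were called with no filter, with only TE and TF in the fit (adjusted p = 0.0439 and 0.0171) and without SF replicate 2, SE replicate 1 or SE replicate 2. Myh7b was also called with DESeq2 (adjusted p = 0.0419) and without TF replicate 1 (3.41, adjusted p = 0.0208), and was 1.45 without TF replicate 2. Myh8 was 2.62 without TF replicate 1 and 1.12 without TF replicate 2, neither called. The fast isoforms had log2 fold changes of 0.43 for Myh1, 0.12 for Myh2 and 0.37 for Myh4, with adjusted p of 0.422, 0.915 and 0.592.

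In SE versus SF, the same question for satellite cells, 5 members rose and 1 fell, against 20.9% and 19.8% of all tested genes and 40.7% called either way. The members' median log2 fold change was 5.23, against -0.234 over all genes. Myh3 had a fitted log2 fold change of 12.19 (SE 0.987, adjusted p = 1.99e-05) and Myh8 one of 10.06 (SE 1.19, adjusted p = 0.000158). Their SF level is set by SF replicate 1. Without it Myh8 was at 0 counts in SF, and SE was at least 6870-fold higher, computed against the floor of 3 counts in SF replicate 2. Myh3 gave 11.3 without SF replicate 2 and 15.5 without SF replicate 1, where SF holds 2.01 counts. Myh7 rose by 7.61 (SE 0.648, adjusted p = 2.52e-05), with 6.44 without SE replicate 2 and 8.27 without SE replicate 1. Myh1 rose by 6.97 (SE 0.483, adjusted p = 8.06e-06), with 6.31 and 7.46 on leaving out the same libraries.

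Myh7b rose by 3.48 (SE 0.801, adjusted p = 0.00698), with 2.32 without SE replicate 2 and 4.47 without SF replicate 1. Myh2 was the member that fell, by 2.49 on the log2 scale (SE 0.711, adjusted p = 0.0196). Its call was lost without SF replicate 1 (-1.12, adjusted p = 0.209), without SE replicate 1 (-1.84, adjusted p = 0.0533) and in a fit of SE and SF alone (adjusted p = 0.0736), and it was -3.53 without SE replicate 2. Myh4 did not pass (0.35, 95% interval -0.67 to 1.36, adjusted p = 0.555), nor did Myh6 (1.74, -0.65 to 4.12, adjusted p = 0.21). Without SE replicate 1 both were called, Myh4 at 0.99 (adjusted p = 0.0116) and Myh6 at 2.53 (adjusted p = 0.023), and without SE replicate 2 they were -0.745 and 0.149. Myh6 was also called with no filter, and without SF replicate 1, where it was at 0 in SF and at least 18.6-fold higher in SE.

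**Figure D3:**
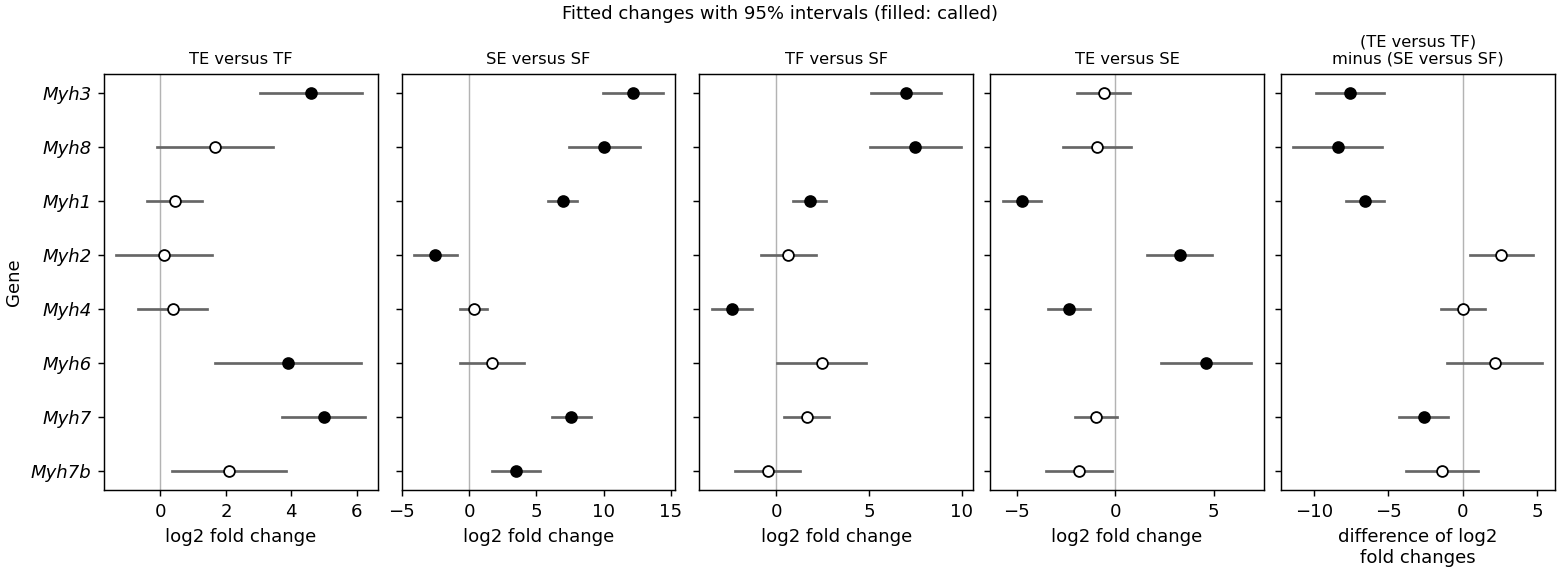
Fitted log2 fold change of each gene with its 95% interval in the 4 pairwise comparisons, and the difference between the changes on expansion in the right panel; filled points are called (adjusted p below 0.05 and the higher group more than 25% above the lower). Myh3, Myh8, Myh1 and Myh7 lie left of 0 in the right panel, and each panel has its own scale.

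The 2 origins were compared before culture next. In TF versus SF, 3 members were higher and 1 was lower in TF, against 15.1% and 9.13% of all tested genes and 24.2% either way, with a median of 1.73 over the members and 0.0799 over all genes. Myh8 was higher by 7.49 (SE 1.09, adjusted p = 0.00148) and Myh3 by 7.02 (SE 0.839, adjusted p = 0.000551). Without SF replicate 1, Myh8 was at least 1190-fold higher in TF and Myh3 gave 10.3, and without SF replicate 2 they gave 6.48 and 6.08. Myh1 was higher by 1.81 (SE 0.389, adjusted p = 0.00949), with 1.43 without TF replicate 1 and 2.11 without TF replicate 2. Myh4 was lower in TF, with a log2 fold change of -2.37 (SE 0.484, adjusted p = 0.00741), which was -2.76 without TF replicate 1 and -2.06 without TF replicate 2. Myh7 (1.64, adjusted p = 0.055), Myh6 (2.45, adjusted p = 0.127), Myh2 (0.65, adjusted p = 0.518) and Myh7b (-0.46, adjusted p = 0.721) did not pass. Myh7 was called in 7 of 14 alternatives, among them no filter, DESeq2 (1.48, adjusted p = 0.0102) and without TF replicate 2 (1.94, adjusted p = 0.0395). Myh6 was called in 4 of 14, namely no filter, without SE replicate 1, without SE replicate 2, and without SF replicate 1, where it was at least 30.9-fold higher in TF.

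After culture the called members were adult fast and cardiac isoforms. In TE versus SE, 2 members were higher and 2 were lower in TE, against 3.15% and 4.07% of all tested genes and 7.21% either way, and the medians were -0.948 and -0.00339. Myh1 was lower in TE, with a log2 fold change of -4.74 (SE 0.433, adjusted p = 0.000348), which was -5.18 without SE replicate 1 and -4.06 without SE replicate 2. Myh4 was lower in TE (-2.35, SE 0.478, adjusted p = 0.0175), with -2.96 and -1.24 without SE replicates 1 and 2, and its call was lost in a fit of TE and SE alone (adjusted p = 0.0561). Myh6 was higher in TE by 4.61 (SE 1.03, adjusted p = 0.0261), with 3.86 and 6.21 without SE replicates 1 and 2, and its call was lost with DESeq2 (4.58, adjusted p = 0.0737). Myh2 was higher in TE by 3.27 (SE 0.727, adjusted p = 0.0258), with 2.66 and 4.32 on leaving out the same libraries. Myh3 (-0.58, 95% interval -1.92 to 0.77), Myh8 (-0.92, -2.66 to 0.82), Myh7 (-0.98, -2.05 to 0.09) and Myh7b (-1.84, -3.50 to -0.19) did not pass, with adjusted p of 0.684, 0.589, 0.303 and 0.199, and these intervals do not show that TE and SE were alike. Myh7 and Myh7b were called without SE replicate 1 (-1.61 and -2.47, adjusted p = 0.00119 and 0.0254) and were 0.205 and -0.668 without SE replicate 2, and Myh8, Myh7 and Myh7b were called with no filter.

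The change on expansion was also compared between origins, as (TE versus TF) minus (SE versus SF). Of the 8 members, 4 had a lower value in the teratoma cells, against 9.62% of all tested genes (4.70% were higher and 14.3% were called either way), with medians of -2.00 and -0.175. The difference was -7.59 for Myh3 (SE 1.02, adjusted p = 0.00159), -8.41 for Myh8 (SE 1.32, adjusted p = 0.00331) and -6.54 for Myh1 (SE 0.576, adjusted p = 0.000214). On leaving out libraries Myh3 ran from -10.9 without SF replicate 1 to -6.66 without SF replicate 2 and Myh1 from -7.00 without SE replicate 1 to -5.88 without SE replicate 2. Myh8 was -7.39 without SF replicate 2, and without SF replicate 1 it rests on a group at 0. No member was called higher by edgeR at the adjusted threshold, and Myh2 was higher at an unadjusted p of 0.0221 (2.61, adjusted p = 0.103) and was called with DESeq2 (2.77, adjusted p = 0.0438), with no filter (adjusted p = 0.00126), without SF replicate 2 (3.29, adjusted p = 0.015) and without SE replicate 2 (3.65, adjusted p = 0.0149), but was 1.27 without SF replicate 1. Among the alternatives, Myh6 was called higher only with no filter. Myh7 differed by -2.62 (SE 0.726, adjusted p = 0.0401), between -3.26 without SE replicate 1 and -1.45 without SE replicate 2. Its call was lost without TF replicate 1, TE replicate 1, SF replicate 1 or SF replicate 2 (adjusted p up to 0.077) and with median-ratio scaling (adjusted p = 0.0524).

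**Figure D4:**
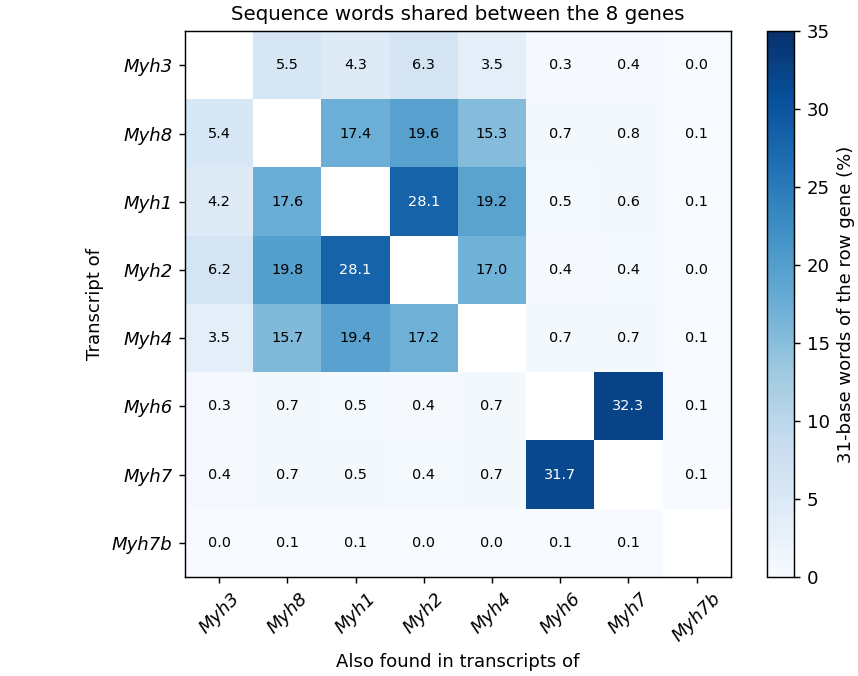
Share of the 31-base words in the longest coding transcript of the row gene that also occur in transcripts of the column gene (%). The darkest pairs are Myh6 with Myh7 (32.3%) and Myh1 with Myh2 (28.1%).

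Some members share much of their sequence, most of all Myh6 with Myh7 and Myh1 with Myh2, and estimated counts split the reads they share. Of the 31-base words of its transcript, 55.1% were unique to Myh1, 59.5% to Myh2, 61.4% to Myh7 and 67.5% to Myh6, against 88.8% for Myh3 and 99.7% for Myh7b. A read of 150 bases would hold at least 1 unique word in 92.0% of positions for Myh1 and 94.3% for Myh2, and in 92.7% and 94.5% for Myh7 and Myh6. The longest stretch shared was 268 bp for Myh1 and Myh2 and 245 bp for Myh6 and Myh7. The Myh2 to Myh1 ratio was 0.000527 and 0.000784 in SE and 0.179 in both TE libraries. The Myh6 to Myh7 ratio was 0.243 and 0.250 in TE and 0.00381 and 0.00560 in SE. The part of shared reads in the levels of these genes was not tested. Myhas, an antisense transcript (chr11:67211256-67237573, minus strand) that overlaps Myh1, had 20.6 and 17.4 normalized counts in SE and at most 3.73 elsewhere, and the sources used here do not say whether counting used strand.

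**Figure D5:**
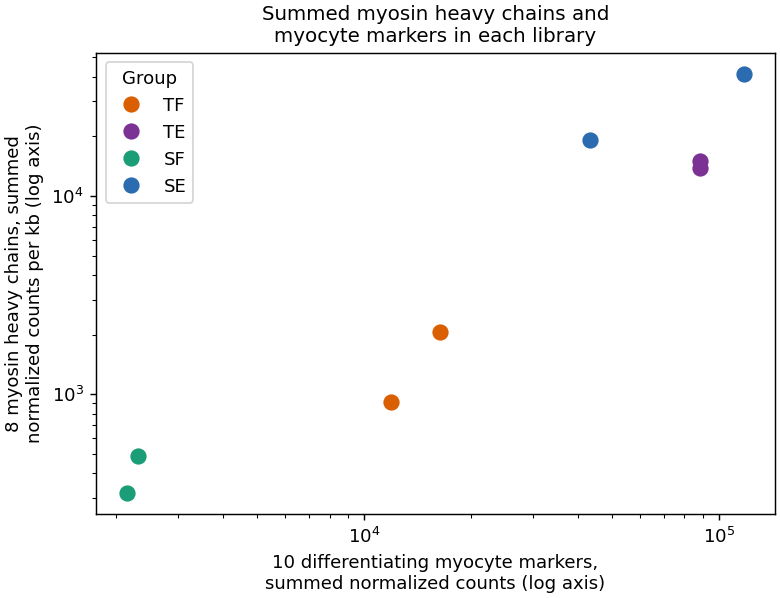
Summed normalized counts per kb of the 8 myosin genes against the summed normalized counts of 10 markers of differentiating myocytes, 1 point per library, both axes log. SF lies lowest on both axes (2153 and 2312 markers) and SE replicate 2 highest (117570 markers).

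Markers of differentiating myocytes were measured beside the myosins. Of the 10 genes, 8 rose in TE versus TF and 8 in SE versus SF, against 9.86% and 20.9% of all tested genes, and Ckm and Cdkn1c passed in neither. The 10 genes of this list, among them the factor Myog and the fusion protein Mymk, summed to between 2153 and 2312 normalized counts in SF, 11927 and 16329 in TF, 88221 and 88630 in TE, and 43225 and 117570 in SE. The sum was lower in SE replicate 1 than in either TE library, whereas the myosin sum was higher. Of the list, 1 gene was at 0 in SF replicate 2 and none in the other libraries. Myog, which drives differentiation, was 8.92 and 14.8 normalized counts in SF, 1328 and 1449 in TF, 11170 and 11840 in TE, and 3993 and 13510 in SE. The 10 adult fibre markers summed to between 2841 and 3326 in SF and 3503 and 5333 in TF, and to 16977 or more in the expanded groups. Of these, 6 rose in TE versus TF and 7 in SE versus SF, and Ckm, Pvalb and Myoz1 passed in neither. Ckm is in both marker lists. Other genes of these lists recur in the light chain, thick filament and fibre partner lists below, so the counts are not independent. Pvalb was highest in SF, at 93.0 and 73.0 normalized counts. It was 23.4 and 2.46 in TF, 0 and 4.63 in TE, and 3.58 and 34.3 in SE. The part of differentiating cells in the myosin levels was not tested.

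Myh6 was set beside the 10 cardiomyocyte markers, which summed to between 585 and 711 normalized counts in TE, 229 and 411 in TF, 382 and 842 in SF, and 120 and 149 in SE. In TE and in SE the atrial light chain Myl7 and the peptide Nppb were at 0 in both libraries. Tnni3 was 0.749 and 10.8 in TE and 24.3 and 38.6 in SE. The cardiac factor Nkx2-5 was 364 and 240 in TE, 23.4 and 39.4 in TF and 0 in all SF and SE libraries, so that TE was at least 128-fold above SE and at least 83.4-fold above SF against a floor of 3 counts per library. Gata4 was 298 and 301 in TE and 48.6 and 40.3 in SE (log2 fold change 2.77, adjusted p = 0.0106). Of the 6 tested markers, these 2 were called higher in TE than SE, against 3.15% of all tested genes, and 4 were not called. The 4 were Tbx5, Tbx20, Tnni3 and Ryr2, with means of 16.35, 18.69, 5.77 and 2.68 in TE. These means were lower than in SE, where they were 22.35, 27.07, 31.47 and 7.37. The TE and SE libraries overlapped for Tbx5 and Ryr2, and Ryr2 in TE was near the floor. The part of cardiac cells in the Myh6 level was not tested. Markers of fibro-adipogenic cells summed to 295390 and 295490 in TF, 42009 to 70874 in SF and at most 14017 in the expanded groups. Col3a1 alone was 267100 and 267900 in TF and 24040 and 42500 in SF. In TF versus SF, 3 of the 7 markers were called higher, against 15.1% of all tested genes, and 4 were not called. Their median log2 fold change was 0.146. The summed markers were lower on expansion, where the myosin sum was higher, and higher in TF than SF, as the myosin sum was. The part of fibro-adipogenic cells in the myosin levels was not tested.

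Genes of the thick filament were counted next. Beside them, 9.86% of all tested genes rose and 16.2% fell in TE versus TF, and 20.9% rose and 19.8% fell in SE versus SF. Of 6 tested light chain and light chain kinase genes, 4 rose and 1 fell in TE versus TF, and 3 rose and 1 fell in SE versus SF. Myl4, the embryonic and atrial essential light chain, rose by 4.36 in TE versus TF (adjusted p = 0.000166), and Mylpf, the fast regulatory light chain, by 7.30 in SE versus SF (adjusted p = 8.15e-06). Mylk2, a kinase of the regulatory light chain, fell by 1.96 and by 2.45 (adjusted p = 0.014 and 0.00308). Of 9 thick filament and M-band genes, 6 rose and 2 fell in TE versus TF, and 7 rose in SE versus SF. Myom3, an M-band protein, had the smallest adjusted p of the list in both and rose by 4.50 and 6.98 (adjusted p = 5.42e-05 and 6.75e-06). Mybpc1, the slow myosin binding protein C, fell by 1.41 in TE versus TF (adjusted p = 0.0284) and was lower in TE than SE (-2.35, adjusted p = 0.00846).

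Of 8 genes for the folding and turnover of myosin, 5 rose and 1 fell in TE versus TF, and 6 rose and 2 fell in SE versus SF. The shares of all tested genes were 9.86% and 16.2% in the first comparison and 20.9% and 19.8% in the second. Smyd1, a methyltransferase that helps myosin assemble, had the smallest adjusted p of the list in both and rose by 3.75 and 7.47 (adjusted p = 3.15e-05 and 2.49e-06). The chaperone Hsp90aa1 fell by 0.75 in TE versus TF (adjusted p = 0.0403), and Unc45a, a general myosin chaperone, fell by 1.011 in SE versus SF (adjusted p = 0.00441). Fbxo32, a ubiquitin ligase of wasting muscle, was lower in TE than SE (-2.66, adjusted p = 0.00131).

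Partner genes of slow and of fast fibres both held genes that rose. Among 6 slow genes, 4 rose in each expansion and 1 fell in SE versus SF, and among 8 fast genes, 6 rose in TE versus TF and 7 in SE versus SF. Over all tested genes, 9.86% rose in TE versus TF and 20.9% in SE versus SF, where 19.8% fell. Tnni1, slow troponin I, rose by 4.87 in TE versus TF (adjusted p = 9.36e-05), Tnnt1, slow troponin T, by 5.19 in SE versus SF (adjusted p = 5.17e-06), and Tpm1, a tropomyosin, by 1.41 and 3.20 (adjusted p = 0.000686 and 6.14e-06). Tpm3, the slow tropomyosin, fell by 0.85 in SE versus SF (adjusted p = 0.00718). In TE versus SE, 1 of the 8 fast genes was called, against 7.21% of all tested genes. It was Casq1, the calcium store protein of fast fibres, which was lower in TE (-1.81, adjusted p = 0.0101).

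Of the other class II myosins, Myh9 and Myh10 are nonmuscle isoforms and Myh11 the smooth muscle isoform. Myh9 rose by 0.86 in TE versus TF (adjusted p = 0.0292) and by 1.20 in SE versus SF (adjusted p = 0.0039). Myh11 fell by 6.34 and fell by 10.66 in these comparisons (adjusted p = 5.31e-06 and 1.28e-06). It went from 2968 and 1921 normalized counts in TF to 23.2 and 34.7 in TE, and from 6601 and 5482 in SF to 1.43 and 5.15 in SE. Myh11 was higher in TE than SE (3.18, adjusted p = 0.00647). Of the 8 smooth muscle and pericyte markers, Myh11 among them, 6 fell and 1 rose in each expansion. Among all tested genes, 16.2% fell and 9.86% rose in TE versus TF, and 19.8% fell and 20.9% rose in SE versus SF. The part of such cells in the Myh11 level was not tested. Myh10 rose by 1.38 in SE versus SF (adjusted p = 0.00457) and was higher in TF than SF (1.97, adjusted p = 0.0018). Myh14 fell by 2.18 in SE versus SF (adjusted p = 0.0467), and neither Myh13 nor Myh15 passed in any pairwise comparison. Myh13 and Myh15 are not part of the myosin sums and shares above.

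Genes whose pattern over the 8 libraries was most like that of a member were found by Pearson's r of log2(normalized count + 1) among 12671 genes with a mean of at least 50, which is given as a description over libraries that fall into 4 groups. Myh3 was most like Galk1 (0.995), Mylpf (0.994) and Cisd1 (0.994), and Myh7 most like Tpm2 (0.997), Bin1 (0.995) and Srl (0.995). Myh8 was closest to Exo5 (0.994), Myoz2 (0.991) and Smim20 (0.989), and Myh1 to Plag1 (0.991), Pkig (0.990) and Pdk1 (0.984). For Myh6 they were Zfp661 (0.986) and Igf2bp1 (0.981), for Myh2 Lrrc61 (0.982), Snx33 (0.972) and Zfp46 (0.970), for Myh4 2900052L18Rik (0.979), Tlr4 (0.979) and Anxa11 (0.957), and for Myh7b Hook2 (0.987), Adssl1 (0.976) and Arfgef1 (0.976). Among the members, Myh3 and Myh8 were most alike (0.972) and Myh1 and Myh2 most opposed (-0.703).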

How the data were processed

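RNA was read from 8 libraries made with a SMARTer kit for stranded total RNA at low input, paired-end at 150 bases. The authors deposited 1 table of estimated counts per gene symbol. The submitters' processing notes name kallisto 0.44.0, CASAVA and the build GRCm38/mm10, without saying how each was used. In each library 15.57% to 25.57% of values were not whole, and all were rounded before testing, and reads that paralogs share were split by the estimate. No row lacked a gene name, and no column of another sample was present. The ribosomal RNA precursor Rn45s took 7.986% to 21.25% of counts. No 2 libraries of a group agreed within counting noise (chi-square per degree of freedom 12.1 in TE to 93.0 in SE), so none was treated as a repeat of another. The animals and cultures behind the replicates are not given in the sources used here, so p-values measure the spread between these samples.

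Genes were filtered with edgeR's filterByExpr, scaled by TMM and tested with edgeR 4.0.16 (R 4.3.3) by quasi-likelihood in 1 fit over 4 groups without a replicate term. The common dispersion was 0.233. Levels were divided by size factors of DESeq2 1.42.0 and by transcript length (GENCODE M21), shares were taken per library, and intervals are at 95%. Alternatives were median-ratio scaling, no filter, DESeq2, a test against the fold threshold (glmTreat), only the 2 groups compared, a replicate block, no division by length, and each library left out. The fit was also run on simulated counts, and no result given here rests on that run. Members and lists were chosen with earlier results of these data known. Other genes named were the called gene with the smallest adjusted p per list, direction and comparison, the 6 other class II myosins, regulators fixed by name, markers whose summed level is given, and the 3 genes most like each member; some genes under this rule are not reported here. Promoter windows are from RefSeq (GRCm38.p6), and protein sequences were not used here.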

Additional observations from a re-analysis of the deposited data

Results flagged for a closer look

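The change on expansion differed between teratoma-derived and satellite cells, by a test of the difference itself in edgeR's fit, for 4 of the 8 members, against 14.3% of all tested genes. The difference in log2 fold change, (TE versus TF) minus (SE versus SF), was -7.59 for Myh3, -8.41 for Myh8, -6.54 for Myh1 and -2.62 for Myh7. The first 2 rest on SF counts of 36.99 and 2.01 for Myh3 and of 41.23 and 0 for Myh8. The Myh7 call was lost in 5 of 13 alternatives. In TE versus SE, Myh3, Myh8 and Myh7 did not pass (adjusted p = 0.684, 0.589 and 0.303 in the same fit), which does not show that they were alike. Both arms rose for Myh3, by 4.59 in teratoma cells and by 12.19 in satellite cells, and for Myh7, by 4.99 and 7.61. Myh8 and Myh1 passed in satellite cells, at 10.06 and 6.97, and in teratoma cells had 1.65 and 0.43, which did not pass. Myh8 in TE versus TF passed in 5 of 14 alternatives, and its value was 1.12 to 2.62 on leaving out libraries. The groups held 2 libraries each, too few to look for a single library that stands apart.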

How the results depend on the processing

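Without division by length, all 12 class shares moved by less than 1 SD. Leaving out 1 of 2 replicates always moves a mean by less than their SD, so it does not test the shares, and the SF developmental share was 0.119% and 3.35% in the single libraries. Of the recomputed log2 fold changes of members, 492 kept direction and call, 37 gained a call, 12 lost one and 11 changed sign. For TE versus TF, 5 members were called with no filter (5497 genes in all) and 5 with only the 2 groups in the fit (6511 in all). For TE versus SE, 7 were called with no filter (2260 in all). Leaving out each library gave 2 to 5 members called in TE versus TF (2 without TF replicate 2, 5 without SF replicate 2, SE replicate 1 or SE replicate 2), 6 to 7 in SE versus SF, 4 to 6 in TF versus SF, 4 to 6 in TE versus SE and 3 to 5 for the difference between expansions. The cause was not tested.

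The log2 fold changes that changed sign on leaving out a library were uncalled with all libraries and where the sign turned, with ranges of -0.0463 to 0.321 for Myh2 in TE versus TF, -0.745 to 0.99 for Myh4 in SE versus SF, -0.021 to 2.01 for Myh2 and -1.73 to 0.515 for Myh7b in TF versus SF, -1.5 to 0.118 for Myh8 and -1.61 to 0.205 for Myh7 in TE versus SE, and -0.588 to 1.12 for Myh4 and -5.21 to 3.75 for Myh6 in the difference between expansions (0.22 for Myh7b without TF replicate 2; -0.276 and -0.108 for Myh4 without TF replicate 2 and SF replicate 1). Without SF replicate 1 the Myh6 value rests on a group at 0.

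Over all genes, TE versus SE gave 2260 calls with no filter and 2163 with DESeq2, against 1268. Without TE replicate 1 or 2, calls fell to 2759 and 2739 from 4581 in TE versus TF, to 666 and 653 in TE versus SE, and to 1473 and 1467 from 2517 for the difference, and without TF replicate 1 or 2 to 2639 and 2671 from 4261 in TF versus SF. Median-ratio scaling moved the median of all genes by -0.19 in SE versus SF, -0.16 in TF versus SF and 0.14 in the difference. Deviations of same-numbered samples from their group means had correlations of -0.0263 to 0.0757 between groups. Such values cannot tell whether same-numbered samples shared an animal or culture, so pairing by origin is not known. With the replicate block, the pairing gave 3, 6, 4, 4 and 4 members called, as without it, and 4321, 6757, 3979, 1205 and 2327 genes in all, in the order of the report.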

Other observations

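Regulators linked to the choice of myosin isoform were also measured, as a list of 18 genes, with changes given as log2 fold changes. In each expansion 8 rose and 6 fell. All tested genes rose in 9.86% and fell in 16.2% of cases in TE versus TF, and in 20.9% and 19.8% in SE versus SF. Myod1, the factor that commits cells to muscle, was 638 and 930 normalized counts in TF, 4826 and 4819 in TE, 6767 and 8837 in SF, and 10500 and 10700 in SE, and it rose in TE versus TF (log2 fold change 2.68, adjusted p = 6.07e-05 in edgeR's fit) and was lower in TF than SF (-3.16, adjusted p = 0.000111) and in TE than SE (-1.11, adjusted p = 0.019). Myog rose by 9.69 in SE versus SF (adjusted p = 9.28e-06) and was higher in TF than SF by 6.997 (adjusted p = 0.000179). Mef2c, a partner of the muscle factors, rose by 1.96 in TE versus TF (adjusted p = 0.0064) and by 3.79 in SE versus SF (adjusted p = 0.000141).

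Sox6, a repressor of slow fibre genes, fell by 1.68 in SE versus SF (adjusted p = 0.0262) and had 0.32 in TE versus TF (adjusted p = 0.668). Nfatc2, a calcium-driven factor, fell by 4.17 in TE versus TF and fell by 5.91 in SE versus SF (adjusted p = 0.00028 and 3.4e-05). Nfatc4 fell by 3.70 in TE versus TF (adjusted p = 0.00028) and was lower in TE than SE (-2.39, adjusted p = 0.00877). Myf6, a late muscle factor, was 152 and 28.3 normalized counts in TF and 0 and 1.54 in TE. Pax7, the satellite cell factor, fell by 1.49 in TE versus TF (adjusted p = 0.00361) and by 1.38 in SE versus SF (adjusted p = 0.00325). Of the noncoding RNAs of the myosin loci, 1 of 5 was tested and Mir208b and Mir499 were at 0 in every library, in libraries not made for small RNAs.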
